A study of Homo sapiens with 12 samples.

Results

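Cyclins and cyclin-dependent kinases (CDKs) drive the cell cycle, and 10 of their genes were followed here by name in both deposited count tables, out of 79317 genes listed in either table. The members were the D cyclins *CCND1*, *CCND2* and *CCND3*, the E cyclins *CCNE1* and *CCNE2*, the S phase cyclin *CCNA2* with the kinase *CDK2*, and the mitotic cyclins *CCNB1* and *CCNB2* with the kinase *CDK1*. Poly-A RNA was measured from 2 human cancer cell lines, the esophageal squamous cell carcinoma line KYSE30 and the glioblastoma line U138MG, after exposure to an inhibitor of phosphatidylserine synthase 1 (PTDSS1i, DS55980254), an enzyme that makes the membrane lipid phosphatidylserine. Cultures received 100 nM PTDSS1i or DMSO, the solvent, for 48 h. There were 3 libraries in each of the 4 groups, 12 in all, and all cultures carry the genotype label WT. Each line comes from a single tumor, the labels give the growth medium of KYSE30 for every sample, and they put KYSE30 in one batch and U138MG in another, so the line and the batch cannot be told apart. Both treatments were present in each batch, and PTDSS1i was compared with DMSO within a line.

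A cyclin has no enzymatic activity of its own and turns on the kinase that it binds. D cyclins pair with CDK4 and CDK6 in G1 and start the release of E2F transcription factors from the retinoblastoma protein, E cyclins with CDK2 bring cells into S phase, cyclin A2 serves DNA replication, and B cyclins with CDK1 drive mitosis. *CCND1* transcription follows growth factor signals, whereas the mRNAs of the E, A and B cyclins and of *CDK1* rise and fall within each cycle.

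Total counts ran from 18800932 to 26514658 per library, and replicates within each group differed by more than counting noise. The libraries labelled U138MG went against their label in several of the markers checked. In their DMSO libraries the squamous markers were uneven, with *KRT5* at 1469.5 ± 83.4 CPM (counts scaled to the library total, mean ± SD, n = 3) and *KRT15* at 4861 ± 330 CPM, whereas the mesenchymal gene *VIM* was at 0.206 ± 0.0662 CPM and the glial genes *S100B* and *OLIG2* had 0 counts. Other listed squamous keratins were near 0 there, *KRT6A* at 0.488 and *KRT14* at 0.198 CPM, whereas *TP63* was at 276, *CDH1* at 463 and *EPCAM* at 248 CPM. With DMSO in KYSE30, *KRT5* was at 0.061, *KRT14* at 0.355, *KRT6A* at 5.22 and *KRT15* at 41.3 CPM. *TP63* was at 98.2, *CDH1* at 514 and *EPCAM* at 280 CPM in KYSE30. Of the glial and mesenchymal list, *GFAP* was at 2.36 CPM in the U138MG-labelled DMSO libraries (0 in KYSE30) and *NES* at 0.556 CPM (0.336 in KYSE30). *CDH2* was at 11.9 CPM (6.26 in KYSE30), *FN1* at 75.8 CPM (98.3 in KYSE30) and *CD44* at 406 CPM (534 in KYSE30). *VIM* was at 3.99 CPM in KYSE30. Of 7 squamous epithelium markers 5 were over 1 CPM in every DMSO library of each line, with *KRT6A* in place of *KRT5* in KYSE30. The summed list went from between 6870 and 7668 CPM to between 1718 and 1838 CPM with PTDSS1i in the U138MG-labelled libraries. *KRT15* (to 458 CPM) and *KRT5* (to 526 CPM) made up most of this fall, whereas *EPCAM* rose to 348 CPM and *KRT6A* to 1.22 CPM. In KYSE30 the sum went from between 902 and 971 CPM to between 1147 and 1179 CPM. There *CDH1* rose most, to 703 CPM, and *TP63* fell to 68.1 CPM. Of 8 glial and mesenchymal markers 4 were over 1 CPM in each line, with *VIM* in place of *GFAP* in KYSE30. The summed list went from between 492 and 499 CPM to between 743 and 763 CPM in the U138MG-labelled libraries. In KYSE30 it went from between 632 and 663 CPM to between 1002 and 1033 CPM. *CD44* carried both rises, to 692 CPM and to 948 CPM in KYSE30, whereas *FN1* fell to 43.9 CPM and to 37.4 CPM in KYSE30. *GFAP* fell to 1.35 CPM in the U138MG-labelled libraries, and *VIM* rose to 24.6 CPM in KYSE30. What part these marker shifts had in the cyclin results was not tested. The 6 libraries are called U138MG-labelled here, and no line identity is drawn from them.

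Short stretches of promoter sequence are shown because several members moved together and because G2 and M phase genes are known for paired CCAAT boxes and a cell cycle homology region (CHR). The RefSeq promoter set (GRCh38.p14) held 9 start sites for 6 of the 10 members. The 250 bases before each start were searched on both strands for CCAAT, for the CHR forms TTTGAA and TTTAAA, and for the E2F forms TTTCCCGC, TTTGGCGC and TTTCGCGC; none of these letter strings contains another. Capitals mark a letter match to a CHR form or, for *CCNA2*, to a CCAAT box read from the other strand. For the second *CDK1* start this is the match at -69. The match at -13 is not shown, because its 30 bases would run past the stretch searched. Each line gives 30 bases 5′ to 3′ on the strand of the gene:
CCNB1 (chr5:69167108-69167137, plus strand): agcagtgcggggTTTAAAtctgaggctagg
CCNB2 (chr15:59105105-59105134, plus strand): agcgacgcggtaTTTGAAtcctggaacaag
CDK1, second start (chr10:60778397-60778426, plus strand): ctgattggctgcTTTGAAagtctacgggct
CCNA2 (chr4:121823922-121823951, minus strand): gcgagcgctttcATTGGtccatttcaatag
CCNE1 (chr19:29811951-29811980, plus strand): gcgcgcagggatTTTAAAtgtcccgctctg

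The *CCNB1* promoter held 2 CCAAT boxes, at -87 and -55 from the start, and a CHR form at -30. The *CCNB2* promoter held 4 CCAAT boxes, with the nearest at -54, and a CHR form at -29 besides 1 at -193. The second *CDK1* start had CCAAT boxes at -78 and -46 with CHR forms at -69 and -13, and it was the only one of the 9 promoters with an E2F form, TTTCGCGC. These 3 promoters were the ones with at least 2 CCAAT boxes and a CHR form, a combination found in 2.12% of the 35116 RefSeq promoters. The first *CDK1* start had 1 CCAAT box, at -150, and CHR forms at -161 and -131. The *CCNA2* promoter had 1 CCAAT box, at -56, and neither CHR form. *CCNE1* had TTTAAA at -28 and no CCAAT box, and none of the 3 *CCND3* starts had a CHR form. Alone, a CCAAT box stood in 32.0% of promoters, a CHR form in 21.9% and one of the E2F forms in 2.32%. These are matches of letters only, and no binding was measured.

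In KYSE30, PTDSS1i lowered 7 of the 9 members tested and raised none. Of 10 members tested in the U138MG-labelled libraries, 6 fell and 3 rose. The B cyclins, *CDK1* and *CCNA2* fell to between 29.4% and 41.9% of their DMSO level in both lines. The size of the change differed between the lines for *CCND1*, *CCNE1*, *CCNE2*, *CDK2* and *CCNB2*. *CCNE1* fell in KYSE30 and rose in the U138MG-labelled libraries. A member was called when the Benjamini-Hochberg adjusted p of edgeR's quasi-likelihood test, taken over all genes tested, was under 0.05. By this rule 32.0% of the 16389 genes tested in KYSE30 were lower and 30.1% higher, and 33.6% of the 17666 genes tested in the U138MG-labelled libraries were lower and 33.9% higher, so a call on its own was common. Past a log2 fold change of 1, 6 of the 9 members were lower in KYSE30 against 7.04% of all genes tested, and none was higher against 6.40%. This rule took 5 of 10 members as lower in the U138MG-labelled libraries against 11.6% of all genes, and 2 as higher against 8.19%. The 3 treated and 3 DMSO libraries did not overlap for 8 of 9 members in KYSE30 (7 lower and 1 higher), where 66.3% of all genes tested did not overlap, 34.2% lower and 32.1% higher. Among U138MG-labelled libraries they did not overlap for 9 of 10 members (6 lower and 3 higher), against 71.4% of all genes, 35.9% lower and 35.5% higher. The median log2 fold change of the members tested was -1.44 in KYSE30 and -0.61 in the U138MG-labelled libraries, and that of all genes tested was -0.025 and -0.026. Since these are bulk RNA samples, fewer cells in S, G2 or M phase and less of these mRNAs per cell cannot be told apart.

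**Figure D1:**
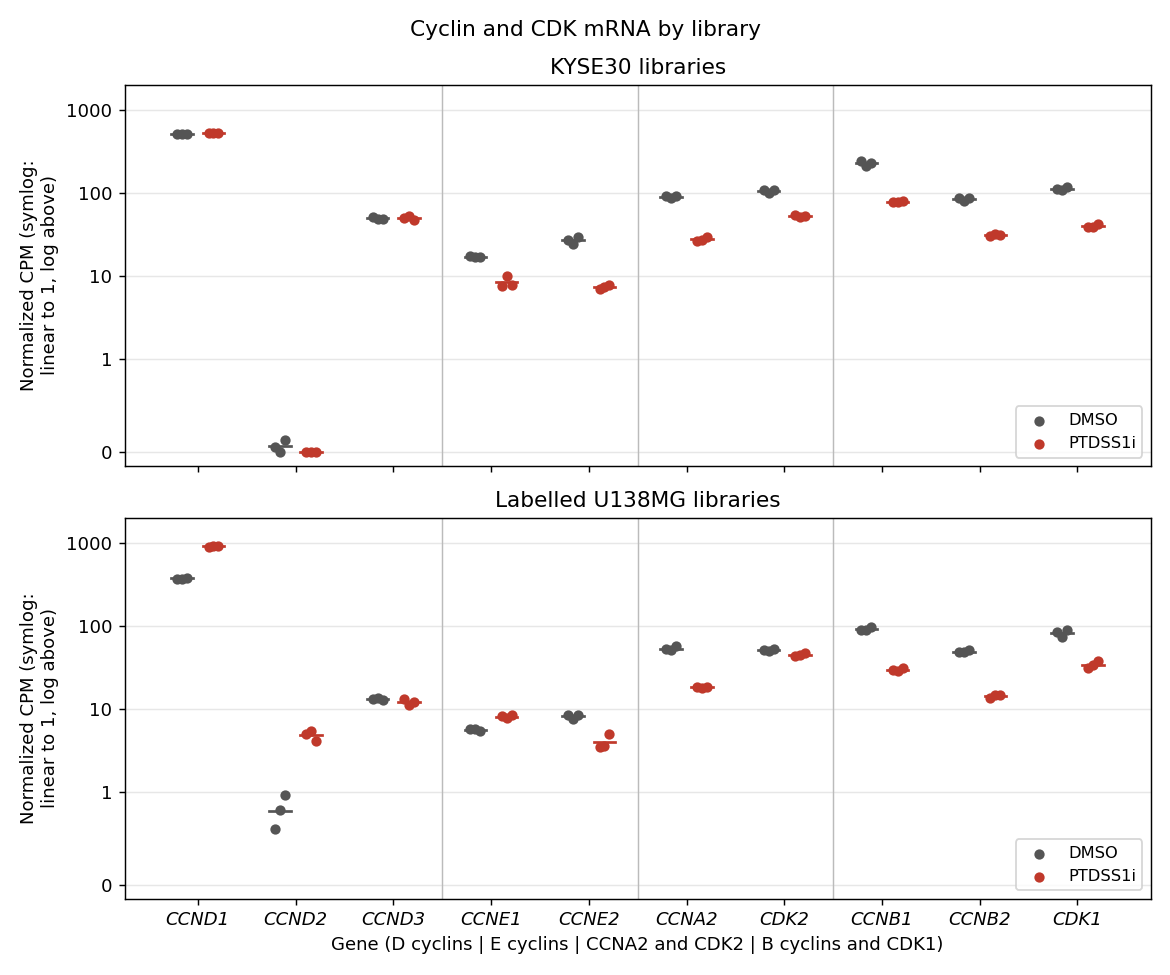
Normalized CPM of the 10 members (y axis, linear up to 1 CPM and logarithmic above) in each of the 3 DMSO (grey) and 3 PTDSS1i (red) libraries of KYSE30 (top) and of the U138MG-labelled libraries (bottom), with a short line at each mean. The B cyclins, CDK1 and CCNA2 sit lower with PTDSS1i in both panels, and CCNE1 sits lower in the top panel and higher in the bottom panel.

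The D cyclins, which answer to growth signals in G1, showed no fall that passed the test in either line. *CCND1* (ENSG00000110092, chr11:69641087-69654474) encodes cyclin D1. In KYSE30 it measured 519.9, 519 and 515 normalized CPM with DMSO and 529, 526 and 529 normalized CPM with PTDSS1i. The groups did not overlap, but the gap was small, with a log2 fold change of 0.03 (SE 0.049, 95% interval -0.07 to 0.13, adjusted p = 0.639). With the U138MG label, *CCND1* went from 372, 371 and 382 normalized CPM to 898, 922 and 925 normalized CPM. All 3 treated libraries were more than double any DMSO library, with a log2 fold change of 1.29 (SE 0.033, adjusted p = 2.42e-23), a 2.44-fold rise. The change was larger in the U138MG-labelled libraries by 1.22 log2 units (SE 0.057, adjusted p = 1.32e-17 for the interaction of line and treatment). Such a difference between the lines was called for 5 of 9 members and for 49.9% of the 18405 genes tested for it. *LTO1*, on the other strand, shares 10.3% of the exonic length of *CCND1* and had log2 fold changes of -0.02 (adjusted p = 0.774) and -0.14 (adjusted p = 0.00912).

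*CCND2* (ENSG00000118971), the gene of cyclin D2, had 1, 0 and 3 counts with DMSO in KYSE30 and 0 in each PTDSS1i library, so both groups lay at or under the floor of 3 counts per library and no fold was taken. Its counts in the U138MG-labelled libraries went from 12, 19 and 22 to 115, 118 and 105, or from 0.796 ± 0.189 to 4.89 ± 0.634 normalized CPM (SD, n = 3). This was the largest rise among the members in fold, with a log2 fold change of 2.60 (SE 0.23, 95% interval 2.12 to 3.08, adjusted p = 7.35e-11), at the lowest CPM per kilobase of any member there in both treatments. The transcript AC008012.1 shares 13.8% of its exonic length on the same strand, and reads of this stretch could belong to either. *CCND3* (ENSG00000112576), the gene of cyclin D3, measured 51.6, 49.1 and 49.0 normalized CPM with DMSO and 50.01, 53.1 and 47.8 with PTDSS1i in KYSE30. The groups overlapped, and the log2 fold change was 0.01 (95% interval -0.11 to 0.13, adjusted p = 0.887). *CCND3* in the U138MG-labelled libraries measured 13.1, 13.5 and 12.7 normalized CPM with DMSO and 13.3, 11.1 and 12.2 with PTDSS1i. These groups overlapped as well, with a log2 fold change of -0.11 (95% interval -0.30 to 0.09, adjusted p = 0.3204). With library size alone as the scaling, this *CCND3* value became -0.25 and passed the test (adjusted p = 0.0187), and in KYSE30 the small positive values of *CCND1* and *CCND3* turned to -0.077 and -0.094, neither past the test.

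The E cyclins, which bind CDK2 at the entry into S phase, parted from each other. *CCNE1* (ENSG00000105173, chr19:29811898-29824308) encodes cyclin E1. In KYSE30 it measured 17.5, 17.2 and 17.1 normalized CPM with DMSO and 7.74, 9.94 and 7.80 with PTDSS1i. Every treated library was lower, and the log2 fold change was -1.03 (SE 0.10, 95% interval -1.24 to -0.82, adjusted p = 1.18e-08). *CCNE1* in the U138MG-labelled libraries measured 5.84, 5.77 and 5.46 normalized CPM with DMSO and 8.25, 7.78 and 8.46 with PTDSS1i. Here every treated library was higher, with a log2 fold change of 0.52 (SE 0.12, 95% interval 0.27 to 0.78, adjusted p = 5.29e-04), a 1.44-fold rise on counts of 117 to 212 per library. The change differed between the lines by 1.51 log2 units (SE 0.15, 95% interval 1.20 to 1.83, adjusted p = 6.47e-10). The opposite movement of *CCNE1* was known when the members were chosen, so this p is no independent support. *CCNE1* was the only member called lower in KYSE30 and higher in the U138MG-labelled libraries, a pattern shared by 1233 genes, or 8.81% of the 13990 tested in both.

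*CCNE2* (ENSG00000175305), the gene of cyclin E2, fell in both. Its level went from 27.2, 24.2 and 30.02 to 7.04, 7.39 and 7.88 normalized CPM in KYSE30, the largest fall of any member there, with a log2 fold change of -1.87 (SE 0.096, adjusted p = 2.86e-13). Its level in the U138MG-labelled libraries went from 8.44, 7.69 and 8.43 to 3.47, 3.59 and 5.03 normalized CPM. The groups did not overlap, although PTDSS1i replicate 3 lay above the other treated libraries, and the log2 fold change was -1.01 (SE 0.15, adjusted p = 8.77e-07). The fall was smaller in the U138MG-labelled libraries by 0.82 log2 units (SE 0.17, adjusted p = 2.02e-04). Within a library, the ratio of *CCNE1* to *CCNE2* counts rose from 0.642 ± 0.072 to 1.14 ± 0.18 (SD, n = 3) in KYSE30 and from 0.697 ± 0.051 to 2.08 ± 0.36 in the U138MG-labelled libraries. No treated library overlapped a DMSO library in either line, and the 2-sided exact permutation p was 0.1 in each, the smallest that 3 against 3 allows. On the GENCODE annotation of GRCh38, 37.0% of the exonic length of *CCNE2* is shared with *INTS8* on the other strand, and the library kit does not mark strand. *INTS8* itself had log2 fold changes of -0.12 (adjusted p = 0.0531) and 0.03 (adjusted p = 0.569), and its part in the *CCNE2* counts was not tested.

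**Figure D2:**
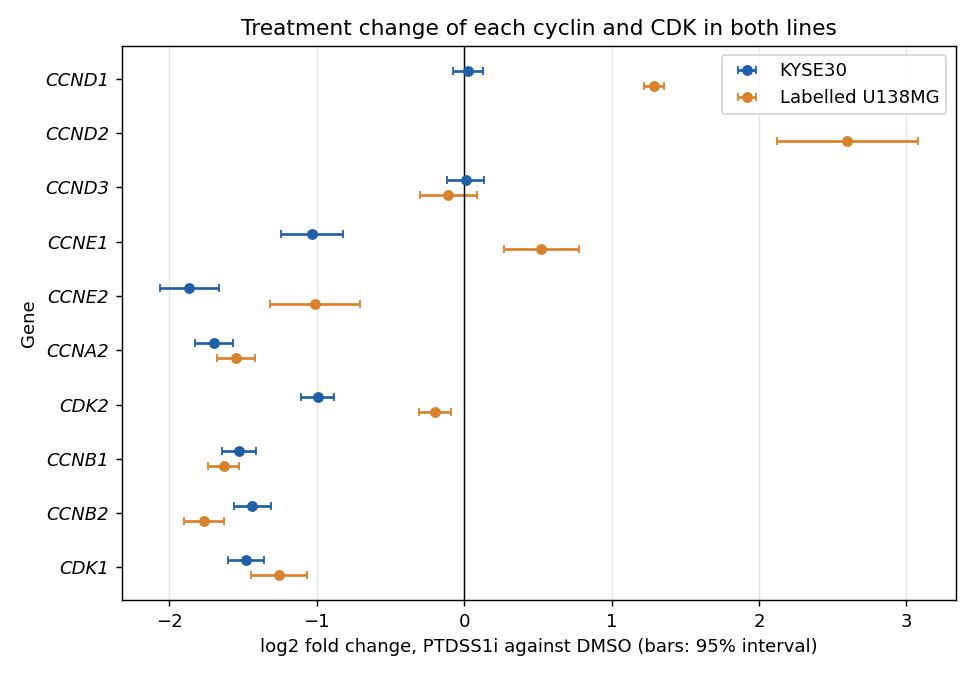
Log2 fold change of PTDSS1i against DMSO (x axis) for each member (y axis), with 95% intervals, in KYSE30 (blue) and in the U138MG-labelled libraries (orange), 3 libraries per group. CCNE1 lies at -1.03 in KYSE30 and at 0.52 in the U138MG-labelled libraries, and CCND2 has no value in KYSE30 because its counts lay at or under the floor.

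Cyclin A2, which acts in S phase and into mitosis, fell in both lines, by amounts whose difference did not pass the test, whereas the fall of its kinase differed between the lines. *CCNA2* (ENSG00000145386, chr4:121816444-121823933) measured 93.1, 87.3 and 91.6 normalized CPM with DMSO and 26.8, 27.1 and 29.8 with PTDSS1i in KYSE30, a log2 fold change of -1.70 (SE 0.061, adjusted p = 8.10e-16). Levels in the U138MG-labelled libraries went from 52.7, 51.1 and 57.2 to 18.7, 17.8 and 18.4 normalized CPM, a log2 fold change of -1.55 (SE 0.062, adjusted p = 1.06e-18). Treated libraries held less than any DMSO library in both lines, and the changes differed by 0.11 log2 units (95% interval -0.07 to 0.29, adjusted p = 0.312). An exonic stretch of 9.08% of *CCNA2* is shared with *EXOSC9* on the other strand, and *EXOSC9* had log2 fold changes of -0.93 (adjusted p = 3.27e-09) in KYSE30 and -0.0010 (adjusted p = 0.991) in the U138MG-labelled libraries.

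*CDK2* (ENSG00000123374, chr12:55966769-55972784) encodes the kinase of the E cyclins and of cyclin A2. Its level in KYSE30 was 108, 101 and 108 normalized CPM with DMSO and 54.6, 51.9 and 52.8 with PTDSS1i, a log2 fold change of -0.99 (SE 0.054, adjusted p = 7.62e-13). Its level in the U138MG-labelled libraries was 50.8, 50.45 and 53.5 normalized CPM with DMSO and 43.5, 44.3 and 47.1 with PTDSS1i. The groups did not overlap, but the fall was small, with a log2 fold change of -0.20 (SE 0.052, adjusted p = 0.00137), or 87.2% of the DMSO level. The fall in KYSE30 was larger by 0.76 log2 units (SE 0.074, adjusted p = 3.80e-10). The ratio of *CCNA2* to *CDK2* counts went from 0.856 ± 0.0057 to 0.525 ± 0.037 in KYSE30 and from 1.04 ± 0.028 to 0.408 ± 0.020 in the U138MG-labelled libraries (SD, n = 3, exact permutation p = 0.1 in each). Of the exonic length of *CDK2*, 14.5% is shared with the antisense transcript AC025162.1 and 2.29% with *PMEL*, and reads of the 2 strands could not be separated.

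The mitotic cyclins and *CDK1* fell in every comparison, and no exon of another gene overlaps theirs in the annotation used. *CCNB1* (ENSG00000134057, chr5:69167010-69178245) encodes cyclin B1, the main cyclin of mitotic entry. In KYSE30 it measured 240.5, 213 and 233 normalized CPM with DMSO and 78.3, 78.1 and 81.3 with PTDSS1i, a log2 fold change of -1.53 (SE 0.055, adjusted p = 8.51e-16). In the U138MG-labelled libraries it measured 90.1, 89.5 and 97.2 normalized CPM with DMSO and 29.6, 28.6 and 31.1 with PTDSS1i, a log2 fold change of -1.63 (SE 0.051, adjusted p = 2.91e-21). Every treated library lay below every DMSO library in both lines. The changes differed by -0.14 log2 units (95% interval -0.29 to 0.02, adjusted p = 0.132), a difference that passed the test (-0.19, adjusted p = 0.028) when KYSE30 DMSO replicate 1 was left out.

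*CCNB2* (ENSG00000157456, chr15:59105078-59125045), the gene of the second B cyclin, went from 86.9, 79.6 and 87.2 to 30.3, 31.9 and 31.5 normalized CPM in KYSE30, a log2 fold change of -1.44 (SE 0.060, adjusted p = 8.88e-15). In the U138MG-labelled libraries it went from 49.0, 48.3 and 50.9 to 13.7, 14.9 and 15.01 normalized CPM, a log2 fold change of -1.77 (SE 0.065, adjusted p = 1.27e-19). It was the only member whose fall was called larger in the U138MG-labelled libraries, by 0.37 log2 units (difference -0.37, SE 0.087, adjusted p = 7.05e-04). *CDK1* (ENSG00000170312, chr10:60778331-60794852), the mitotic kinase, measured 111, 108 and 118 normalized CPM with DMSO and 39.1, 38.6 and 42.4 with PTDSS1i in KYSE30, a log2 fold change of -1.48 (SE 0.059, adjusted p = 3.69e-15). In the U138MG-labelled libraries it measured 85.1, 73.5 and 88.7 normalized CPM with DMSO and 31.5, 34.2 and 37.6 with PTDSS1i. Its DMSO libraries were the more spread here, and the log2 fold change was -1.26 (SE 0.085, adjusted p = 6.12e-07). The changes of *CDK1* in the 2 lines differed by 0.19 log2 units (95% interval -0.02 to 0.39, adjusted p = 0.128).

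Ratios between members within one library do not depend on the scaling between libraries. The ratio of *CCNB1* to *CCNB2* counts moved little, from 2.70 ± 0.054 to 2.54 ± 0.076 in KYSE30 and from 1.87 ± 0.036 to 2.05 ± 0.12 in the U138MG-labelled libraries (SD, n = 3, exact permutation p = 0.1 in each). For *CCNB1* to *CDK1* the ratio was 2.04 ± 0.11 and 1.98 ± 0.056 in KYSE30, with overlapping groups (exact permutation p = 0.6), and it fell from 1.12 ± 0.083 to 0.868 ± 0.062 in the U138MG-labelled libraries (exact permutation p = 0.1). The pair taken across phases, *CCND1* and *CCNB1*, shifted more than these mitotic pairs. The ratio of *CCND1* to *CCNB1* counts went from 2.27 ± 0.15 with DMSO to 6.67 ± 0.14 with PTDSS1i in KYSE30. It went from 4.07 ± 0.13 to 30.8 ± 1.3 in the U138MG-labelled libraries (exact permutation p = 0.1 in each). The ratio of *CCND1* to *CCND3* stayed between 9.90 and 11.1 in all 6 KYSE30 libraries (exact permutation p = 0.8) and rose from 28.6 ± 1.3 to 75.5 ± 7.8 in the U138MG-labelled libraries (exact permutation p = 0.1). Adjusted over the 12 ratio tests by Benjamini-Hochberg, no p could fall under 0.1.

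**Figure D3:**
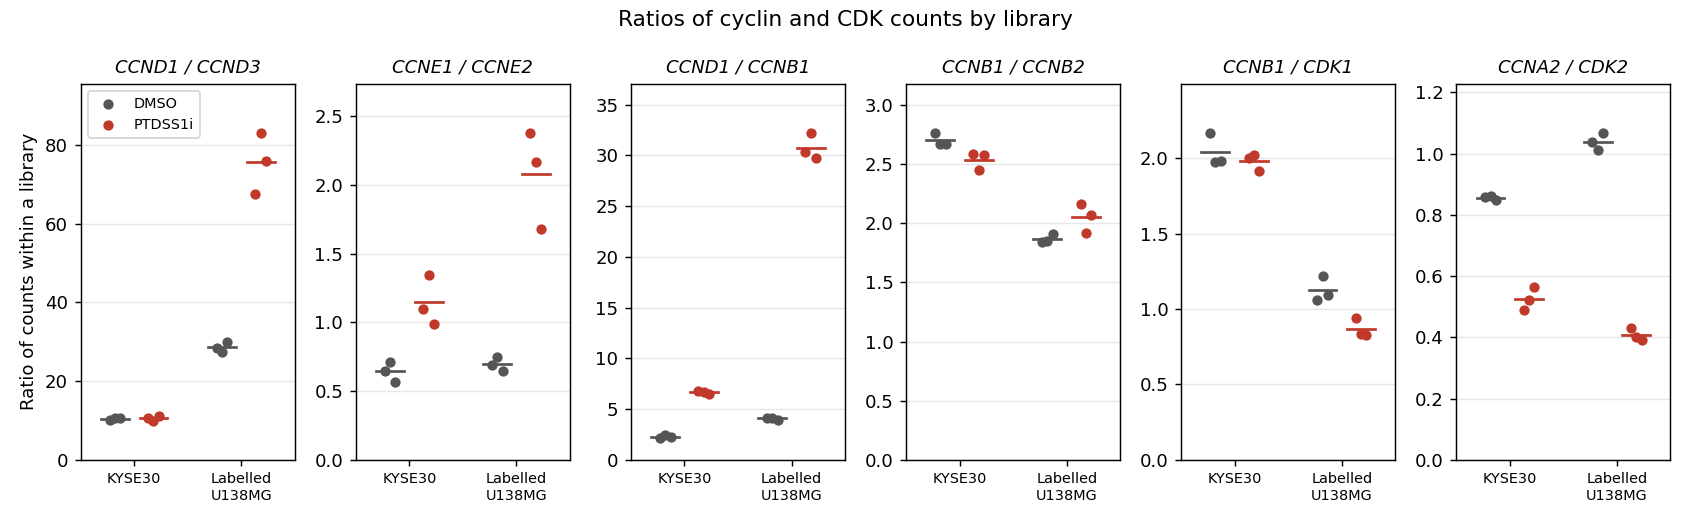
Ratio of the counts of 2 members within each library (y axis, from 0) for 6 pairs, in KYSE30 and in the U138MG-labelled libraries, with DMSO libraries in grey, PTDSS1i libraries in red and a line at each mean of 3. CCNE1 to CCNE2 goes from 0.697 to 2.08 on average in the U138MG-labelled libraries, whereas the CCNB1 to CDK1 groups overlap in KYSE30.

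Levels of different genes were compared as normalized CPM per kilobase of exonic length. This length joins the exons of all annotated transcripts, with stretches shared with other genes, such as 37.0% of *CCNE2* and 14.5% of *CDK2*. Ranks between members of close level could change with another length. *CCND1* was the highest member in all 4 groups, at 107 ± 0.52, 109 ± 0.41, 77.7 ± 1.2 and 189 ± 3.1 CPM per kilobase (SD, n = 3) in KYSE30 with DMSO and PTDSS1i and in the U138MG-labelled libraries with DMSO and PTDSS1i. *CCNB1* came second, at 89.5 ± 5.6, 31.0 ± 0.71, 36.1 ± 1.7 and 11.6 ± 0.50 CPM per kilobase in the same order, and in the last of these groups its range overlapped that of *CDK2* at 11.5 ± 0.48. With DMSO in KYSE30, *CCNA2*, *CCNB2*, *CDK1* and *CDK2* followed between 27.2 and 32.4 CPM per kilobase, where the ranges of *CCNB2* and *CDK1*, and of *CDK1* and *CDK2*, overlapped. In the U138MG-labelled libraries with DMSO these 4 members stood between 13.3 and 21.0 CPM per kilobase, and *CDK1* and *CCNA2* overlapped. *CCND3*, *CCNE1*, *CCNE2* and *CCND2* held the last 4 places in all groups, in that order except that *CCNE1* stood above *CCND3* in the U138MG-labelled libraries with PTDSS1i, at 3.20 ± 0.14 against 2.10 ± 0.19 CPM per kilobase. With DMSO the ranges of *CCNE1* and *CCNE2* overlapped in KYSE30, and those of *CCND3* and *CCNE1* in the U138MG-labelled libraries. *CDK2* stood at rank 6 of the 10 members with DMSO and at rank 3 with PTDSS1i in both lines.

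The genes most like 3 members were taken by Pearson's r of log2 CPM centred within each line, over 12 libraries and 10271 genes. For *CCNE1* these were *GCSH* (r = 0.983), *CEP72* (r = 0.982) and *ARAP3* (r = 0.979), which had log2 fold changes of -0.96, -1.44 and -0.58 in KYSE30 and of 0.40, 0.58 and 0.32 in the U138MG-labelled libraries. For *CCNB1* they were *STMN1*, *ESPL1* and *H2AZ2* (r = 0.998 for each), with log2 fold changes of -1.27, -1.56 and -0.75 in KYSE30 and of -1.34, -1.76 and -0.82 in the U138MG-labelled libraries. For *CCND1* they were *GALNT12* (r = 0.999), *TMSB4X* (r = 0.998) and *ETV5* (r = 0.998), with log2 fold changes of 0.03, 0.14 and 0.25 in KYSE30 and of 2.58, 1.94 and 6.93 in the U138MG-labelled libraries. The 12 libraries share 2 treatments and 2 lines, so these r values describe a common pattern over 4 groups and carry no p.

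The rest of the cyclin-CDK system was read from 6 gene lists, beside the median over all genes tested given above. Of the 6 other cell cycle cyclins and kinases tested out of 8, 4 fell and 1 rose in each line, with list medians of -0.47 and -0.36. *CCNF*, a cyclin that works as a ubiquitin ligase subunit, had the largest fall, at -1.42 in KYSE30 and -2.01 in the U138MG-labelled libraries. *CCNG2*, a cyclin linked to cell cycle arrest, rose by 1.55 log2 units in KYSE30, from 27.7 ± 1.7 to 81.1 ± 0.46 normalized CPM (SD, n = 3), and fell by 0.82 in the U138MG-labelled libraries, from 72.5 to 41.0 normalized CPM. *CDK6*, a kinase of the D cyclins, had -0.26 in KYSE30 and 0.19 in the U138MG-labelled libraries, where its call was lost with library size alone as the scaling. *CCNA1* and *CCNB3* had too few counts to be tested in either line.

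Of the 8 CDK activators and partners, 7 fell and none rose in KYSE30 (median -0.67), whereas 2 fell and 5 rose in the U138MG-labelled libraries (median 0.24), with 1 falling when PTDSS1i replicate 1 or 2 was left out and 3 rising with library size scaling. The phosphatase gene *CDC25A*, whose product removes inhibitory phosphates from CDK2, fell by 1.45 log2 units in KYSE30 and had 0.31 in the U138MG-labelled libraries, lost as a call without PTDSS1i replicate 3 (0.22, adjusted p = 0.0614) and with library size scaling (0.17, adjusted p = 0.128). *CDC25B*, from the same family, had -0.66 and 0.21, the latter lost with library size scaling (0.061, adjusted p = 0.145). *CDC25C*, its relative at mitotic entry, had the largest fall of the list in the U138MG-labelled libraries, at -2.22 from 12.4 ± 2.0 to 2.65 ± 0.30 normalized CPM. In KYSE30 *CDC25C* had -1.42. *CDK7*, the kinase that activates other CDKs, rose there by 0.73 and had -0.011 in KYSE30 (adjusted p = 0.901). Its partners *CCNH* and *MNAT1* had -0.27 and -0.18 in KYSE30 and rose by 0.49 and 0.27 in the U138MG-labelled libraries. In KYSE30 the *CCNH* call was lost without DMSO replicate 3 or PTDSS1i replicate 3 (-0.21 and -0.20), and the *MNAT1* call without any of DMSO replicates 1 and 2 and PTDSS1i replicates 1 and 2 (-0.18 to -0.13). The *MNAT1* call was also lost with RLE scaling, with DESeq2, without the filter on low counts and in a fit of both lines together.

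Among 10 inhibitory kinases and CDK inhibitors, 5 rose and 4 fell in KYSE30 (median 0.19), and 1 rose and 5 fell of the 8 tested in the U138MG-labelled libraries (median -0.29), where 3 fell without DMSO replicate 2 or PTDSS1i replicate 2. *CDKN1A*, the gene of the inhibitor p21, rose in both, by 1.59 log2 units in KYSE30 and by 0.94 in the U138MG-labelled libraries. *CDKN2B*, the gene of an inhibitor of CDK4 and CDK6, had the largest rise in KYSE30, at 1.64 from 58.0 ± 3.6 to 180.4 ± 6.0 normalized CPM, and had 0 counts in all 6 U138MG-labelled libraries, as did *CDKN2A*. *CDKN2C*, from the same inhibitor family, had the largest fall in the U138MG-labelled libraries, at -2.25, and had -1.25 in KYSE30. *CDKN2D* had 0.81 in KYSE30 and -0.43 in the U138MG-labelled libraries. The latter was no longer called without DMSO replicate 2 (-0.34, adjusted p = 0.0637) or PTDSS1i replicate 2 (-0.30, adjusted p = 0.0718). *PKMYT1*, a kinase that holds CDK1 inactive, fell in both lines, at -1.67 in KYSE30 and -0.99 in the U138MG-labelled libraries.

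Of 11 genes of cyclin turnover, 6 fell in each line, and 1 rose in KYSE30 against 3 in the U138MG-labelled libraries (medians -0.26 and -0.36). *CDC20*, which directs mitotic cyclins to destruction, had the largest fall in both, at -1.57 and -1.70. *AMBRA1*, which marks D cyclins for destruction, had the largest rise in both, at 0.20 in KYSE30, where library size scaling took the call away, and at 0.53 in the U138MG-labelled libraries.

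Of the 20 transcription regulators of cyclin genes, 17 fell and 1 rose in KYSE30 (median -0.57), and 9 fell and 8 rose in the U138MG-labelled libraries (median 0.04). *E2F2*, an activating E2F, had the largest fall in KYSE30 at -2.01, and had -1.57 in the U138MG-labelled libraries. *E2F8*, a repressing E2F, had the largest fall in the U138MG-labelled libraries at -2.06, and had -1.98 in KYSE30. *E2F7*, the partner of *E2F8*, moved in opposite directions, from 27.7 ± 0.31 to 8.62 ± 0.29 normalized CPM in KYSE30 and from 24.7 ± 0.99 to 45.3 ± 0.32 in the U138MG-labelled libraries, with log2 fold changes of -1.68 and 0.87. The only call of a rise in KYSE30, *LIN37* at 0.49 on 307 counts in all, was lost when any of DMSO replicates 2 and 3 or PTDSS1i replicate 2 was left out (0.40 to 0.46), with DESeq2, with library size scaling and without the filter on low counts. *E2F3*, *E2F4*, *LIN52* and *MYC* also fell in KYSE30, by 0.29, 0.29, 0.76 and 0.34 log2 units, and rose in the U138MG-labelled libraries, by 0.59, 0.27, 0.34 and 0.31. *E2F6*, a repressing E2F, had -0.20 and 0.45, the former lost as a call without any of DMSO replicate 3 and PTDSS1i replicates 1 and 2 (-0.20 to -0.16). The *E2F6* call in KYSE30 was also lost with DESeq2 and in a fit of both lines together.

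The 14 transcription cyclins and kinases, most of whose complexes act in transcription or splicing, had 6 higher and 2 lower in KYSE30 (median 0.08) and 9 higher and 3 lower in the U138MG-labelled libraries (median 0.20). The lower count was 1 in KYSE30 without DMSO replicate 1, PTDSS1i replicate 2 or PTDSS1i replicate 3, and 1 in the U138MG-labelled libraries without DMSO replicate 2 or PTDSS1i replicate 3. Library size scaling gave 4 lower in KYSE30 and 5 higher and 5 lower in the U138MG-labelled libraries. *CDK9*, the elongation kinase, had the largest rise in KYSE30 at 0.52, and had 0.46 in the U138MG-labelled libraries. Its cyclin *CCNT1* had the largest rise in the U138MG-labelled libraries at 0.54, and had -0.027 in KYSE30 (adjusted p = 0.717). *CDK10* had the largest fall in KYSE30 at -0.34, and the Mediator kinase *CDK19* had the largest in the U138MG-labelled libraries at -0.53 against 0.21 in KYSE30, where library size scaling took the call away (0.11, adjusted p = 0.162). *CCNL2*, a cyclin of splicing, had 0.30 in KYSE30 and -0.11 in the U138MG-labelled libraries, and *CDK12*, an elongation kinase, had -0.14 and 0.27. The call of -0.11 was lost without DMSO replicate 2 or PTDSS1i replicate 3 (-0.096 and -0.051), and that of -0.14 without KYSE30 DMSO replicate 1, PTDSS1i replicate 2 or PTDSS1i replicate 3 (-0.13 to -0.098). The former was also lost without the filter on low counts, and the latter with RLE scaling, with DESeq2 and in a fit of both lines together. *CDK11A* and *CDK11B* are near copies, so their separate counts are uncertain. Across the 6 lists, 16 of the 67 genes tested in both lines were called in opposite directions, 12 lower in KYSE30 and higher in the U138MG-labelled libraries and 4 the other way, where 14.9% of the 13990 genes tested in both lines were called in opposite directions. Of these 16, 6 (*CCNG2*, *E2F3*, *E2F4*, *E2F7*, *LIN52* and *MYC*) kept both calls under every alternative except the requirement of a log2 fold change over 1.

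**Figure D4:**
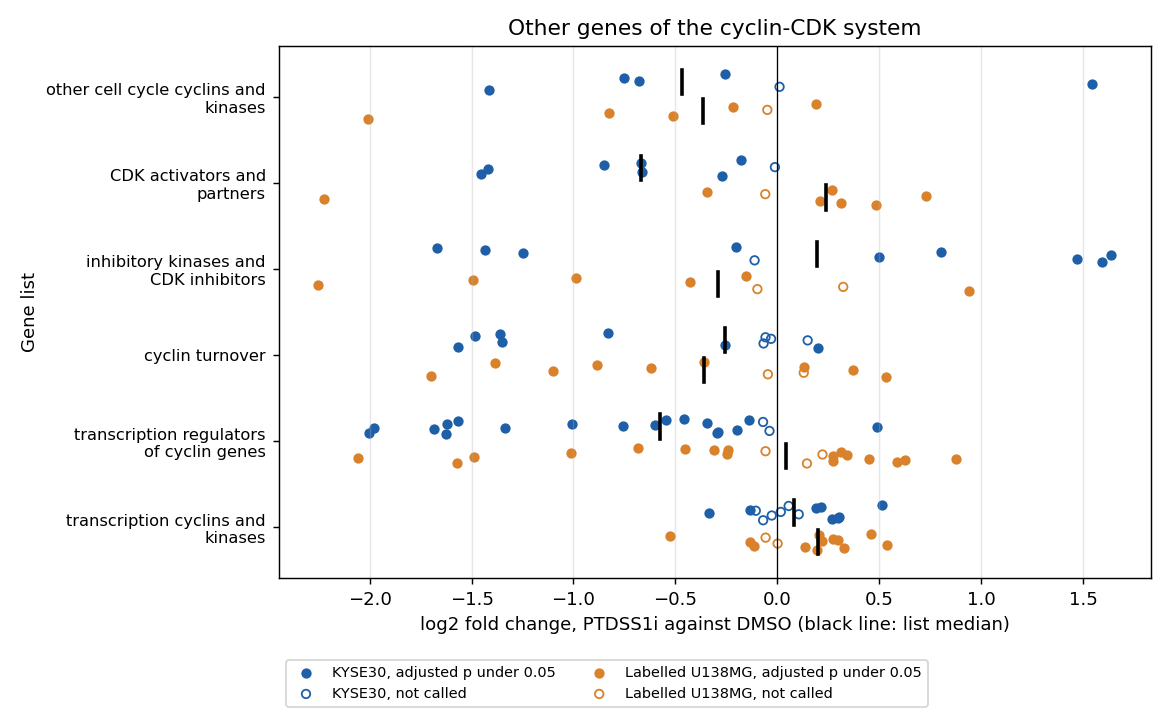
Log2 fold change of PTDSS1i against DMSO (x axis) for each tested gene of 6 gene lists (y axis) in KYSE30 (blue) and in the U138MG-labelled libraries (orange), filled where the adjusted p was under 0.05 and open otherwise, with a black line at each list median. The median of the CDK activators and partners is -0.67 in KYSE30 and 0.24 in the U138MG-labelled libraries.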

How the data were processed

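The authors deposited 1 table of raw gene counts per cell line, whole numbers of reads without normalization, from poly-A libraries of 12 samples. The submitters' processing notes name Trimmomatic, STAR, featureCounts and the build hg38; the gene annotation and the use of strand in counting are not given in the sources used here. The tables list 30984 and 78691 genes, joined by identifier over 30358. Members and gene lists were chosen with earlier results of these data known. Tools were edgeR 4.0.16, limma 3.58.1 and, as an alternative, DESeq2 1.42.0 under R 4.3.3, and matplotlib 3.10.9 under Python 3.11.15 for figures. Genes were kept by filterByExpr (minimum count 10, minimum total 15) and TMM factors set the normalized CPM. For each line, the treated and DMSO libraries entered edgeR's quasi-likelihood test (robust option), p-values were adjusted after Benjamini-Hochberg over all genes tested, and a term for line by treatment gave the test of whether the change differed. This term came from a fit of all 12 libraries over the genes in both tables, with its own TMM factors. Its differences therefore depart slightly from a subtraction of the within-line values. Standard errors were derived from the F statistic. Fits were tested on simulated data. Labels do not say whether replicates were independent cultures, so p-values measure the spread between these samples. All 10 members were named. From each list the largest rise and fall per line at a mean of at least 1 normalized CPM were named, along with genes called in opposite directions, and the 3 genes most like each of *CCND1*, *CCNE1* and *CCNB1* at a mean of at least 5 CPM in both lines. Coordinates and exon overlaps come from a GENCODE annotation of GRCh38, which may not be the authors' annotation. Alternatives were other scalings and filters, DESeq2, a replicate block, a joint fit, leaving out each library and a fold change rule.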

Additional observations from a re-analysis of the deposited data

Results flagged for a closer look

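The results given here are those whose treatment change differed between KYSE30 and the U138MG-labelled libraries by edgeR's interaction test at a Benjamini-Hochberg adjusted p under 0.05, a level reached by 49.9% of all genes tested for it. Differences are for the U138MG-labelled libraries minus KYSE30, in log2 units, from a fit of both lines together with 3 libraries per group. They depart slightly from a subtraction of the changes given within each line. Among the members these were *CCND1* at 1.22, *CCNE1* at 1.51, *CCNE2* at 0.82, *CDK2* at 0.76 and *CCNB2* at -0.37. For *CCNE1* the opposite movement was known when the members were chosen. *CCND3*, *CCNA2*, *CCNB1* and *CDK1* did not pass, and *CCND2* was left out because its KYSE30 counts lay at or under the floor.

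Of the 69 list genes tested for this difference, 45 passed. The 69 include *CDKN2A* and *CDKN2B*, which had 0 counts in every U138MG-labelled library, so no change could be compared there, and neither passed. Among the 31 named, 25 passed and are given here, 16 of which were named because they were called in opposite directions in the 2 lines, so that their passing was nearly fixed by the choice. In the other cell cycle cyclins and kinases the difference was -2.41 for *CCNG2*, -0.63 for *CCNF* and 0.41 for *CDK6*. In the CDK activators and partners it was 1.73 for *CDC25A*, 0.83 for *CDC25B*, 0.72 for *CCNH*, 0.70 for *CDK7*, 0.41 for *MNAT1* and -0.84 for *CDC25C*. In the inhibitory kinases and CDK inhibitors it was -0.69 for *CDKN1A*, -1.04 for *CDKN2C*, -1.28 for *CDKN2D* and 0.65 for *PKMYT1*. *AMBRA1*, of cyclin turnover, differed by 0.29. In the transcription regulators it was 2.52 for *E2F7*, 1.06 for *LIN52*, 0.84 for *E2F3*, 0.62 for *MYC*, 0.61 for *E2F6*, 0.53 for *E2F4* and 0.39 for *E2F2*, the last lost as a call when any of 8 single libraries was left out (0.32 to 0.39). The *E2F2* call was also lost with DESeq2. In the transcription cyclins and kinases it was 0.53 for *CCNT1*, 0.37 for *CDK12*, -0.45 for *CCNL2* and -0.78 for *CDK19*.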

How the results depend on the processing

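Of 456 member values under the alternatives, 444 kept their direction and their side of the threshold. In KYSE30, scaling by library size alone turned *CCND1* to -0.077 and *CCND3* to -0.094, and *CCND3*, never called there, ranged from -0.027 to 0.051 without single libraries (-0.0068 without DMSO replicate 2, -0.0048 without DMSO replicate 3 and -0.027 without PTDSS1i replicate 2). Library size alone also moved the median log2 fold change of all genes to -0.13 and -0.17 and the share of calls that were higher from 48.5% to 37.8% (3932 higher and 6460 lower genes against 4927 and 5238) in KYSE30 and from 50.2% to 37.1% (4533 and 7694 against 5989 and 5930) in the U138MG-labelled libraries. Requiring a log2 fold change over 1 left 1049 higher and 1154 lower genes, and 1446 and 2048, and took away the calls of *CDK2* in both lines and of *CCNE1* in the U138MG-labelled libraries. Without single libraries the called genes ranged from 4527 to 4981 higher and 4773 to 5155 lower in KYSE30, from 5771 to 5898 and 5545 to 5718 in the U138MG-labelled libraries, and from 8712 to 9218 for the difference between the lines, and the members called stayed at 7 lower in KYSE30 and at 6 lower and 3 higher in the U138MG-labelled libraries. The *CCNB1* difference was called at -0.18 with 10 counts required in every library (adjusted p = 0.0385).

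Deviations of same-numbered libraries correlated only weakly, between -0.0029 and 0.075, and the main fits took the samples as unpaired. These weak correlations do not settle whether replicate numbers pair the samples. With the replicate block, 5081 genes were higher and 5377 lower in KYSE30, 6019 and 5923 in the U138MG-labelled libraries, and 9439 differed between the lines. Among members the block changed the call of the *CDK1* difference alone (0.19, adjusted p = 0.0432). Every KYSE30 DMSO library correlated best with the PTDSS1i library of its own number, which DMSO replicate 2 of the U138MG-labelled libraries did not. The best match was taken for DMSO libraries only. For the genes named from the lists, 1235 of 1320 values were as before and none reversed. Of the list counts, 46 of 360 moved by more than 1.5 times. The 72 ratio values each left out 1 library, and all stayed within 1 SD. With 3 libraries per group this was nearly fixed in advance, so it is no test of the ratios. Counts of 3 or fewer set the lower limit of detection.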
